A study of Homo sapiens with 6 samples.

Results

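The genes described here belong to the families that carry drug and xenobiotic metabolism, and were chosen by gene symbol alone: cytochromes P450 (CYP), aldehyde dehydrogenases (ALDH), alcohol dehydrogenases (ADH), aldo-keto reductases (AKR), UDP-glucuronosyltransferases (UGT), glutathione S-transferases (GST), sulfotransferases (SULT) and ABC transporters of classes A to G, together with GCLC. Of the 6641 genes in the deposited table, 70 protein-coding genes met this rule: 18 CYP, 8 ALDH, 1 ADH, 6 AKR, 9 UGT, 7 GST, 5 SULT and 15 ABC genes and GCLC. ALDH1A1, CYP24A1 and ABCA3 were left out by name, and 7 pseudogenes or noncoding genes with matching symbols were left out by type. RefSeq (GRCh38.p14) lists 193 protein-coding genes under the same rule, so the 70 are a part of these families, and the other genes were not analysed here.

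The samples were 6 RNA-seq libraries of total RNA, 3 of HCC827 and 3 of HCC827_Er. HCC827 is a cultured human lung adenocarcinoma line with an activating EGFR mutation. HCC827_Er is named as resistant in the series title, the design text speaks of resistance to EGFR tyrosine kinase inhibitors, and the labels used here do not state the agent, the dose, the time of selection or whether the line is 1 clone. The labels give no treatment for either line, and name lung as their source. Nothing says that replicate libraries are from independent cultures, so the p-values cover only the spread between these samples. Values are FPKM (fragments scaled to transcript length and to the mapped fragments of the library), which can be compared between genes, and the read depth behind them is unknown.

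In the cell, foreign compounds and many of the body's own lipids and steroids are handled in steps. CYP, ALDH, ADH and AKR enzymes oxidise or reduce them (phase I), UGT, GST and SULT enzymes attach glucuronic acid, glutathione or sulfate (phase II), and ABC transporters use ATP to move the products out of the cell or across inner membranes. Liver and gut carry the broadest sets, and airway epithelium carries some of them, induced through the receptor AHR and the transcription factor NRF2. CYP3A4, CYP3A5 and CYP1A1 are known to metabolise EGFR inhibitors such as erlotinib, and ABCB1 and ABCG2 are known to export such inhibitors.

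The table was not a neutral sample of genes. The libraries of HCC827 and HCC827_Er did not overlap for 96.1% of all listed genes, and for 69 of the 70 members. CYP7B1 was the exception. A gene was tested if it reached 1 FPKM in at least 3 of the 6 libraries. It was called at an adjusted limma p under 0.05 and a log2(FPKM + 1) difference of at least 1 in size. This threshold is a 2-fold change of FPKM + 1, and the adjustment was over all 5276 tested genes. Among the 57 tested members, HCC827_Er was called higher for 16 and lower for 22. That is 28.1% and 38.6% of the tested members, beside 24.7% and 19.7% of all tested genes. In either direction 38 members were called (66.7%, beside 44.4% of all tested genes), and all 57 had an adjusted p under 0.05, as did 5187 of the 5276 genes. Differences of 4-fold or more in FPKM + 1 were found for 18 of the 57 (31.6%, beside 12.6%), 5 higher and 13 lower. Low genes can differ more than this in FPKM itself and are not counted. ABCG2, with means 21.4-fold apart, is an example. The median difference was -0.66 over the tested members and 0.43 over all tested genes.

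The scaling of FPKM moved these counts. Median-ratio rescaling shifted HCC827_Er against HCC827 by -0.34 on the log2 scale and gave 13 members higher and 28 lower. Rescaling to equal sums of the listed genes shifted it by 0.25 and gave 21 higher and 19 lower. The counts over all 5276 tested genes moved as well. They were 1304 higher and 1041 lower as deposited, 896 and 1657 after median-ratio rescaling, and 1825 and 794 with equal sums. No tested member changed sign in any alternative, 32 of the 38 called members were called with all 3 scalings, and the other 6 are named with their family. Counts in parentheses below give genes higher and lower after median-ratio rescaling, and then after scaling to equal sums. Each count of a family, class or marker list below stands beside 24.7% higher and 19.7% lower of all tested genes as deposited. These counts are small, and none was tested against those shares.

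**Figure D1:**
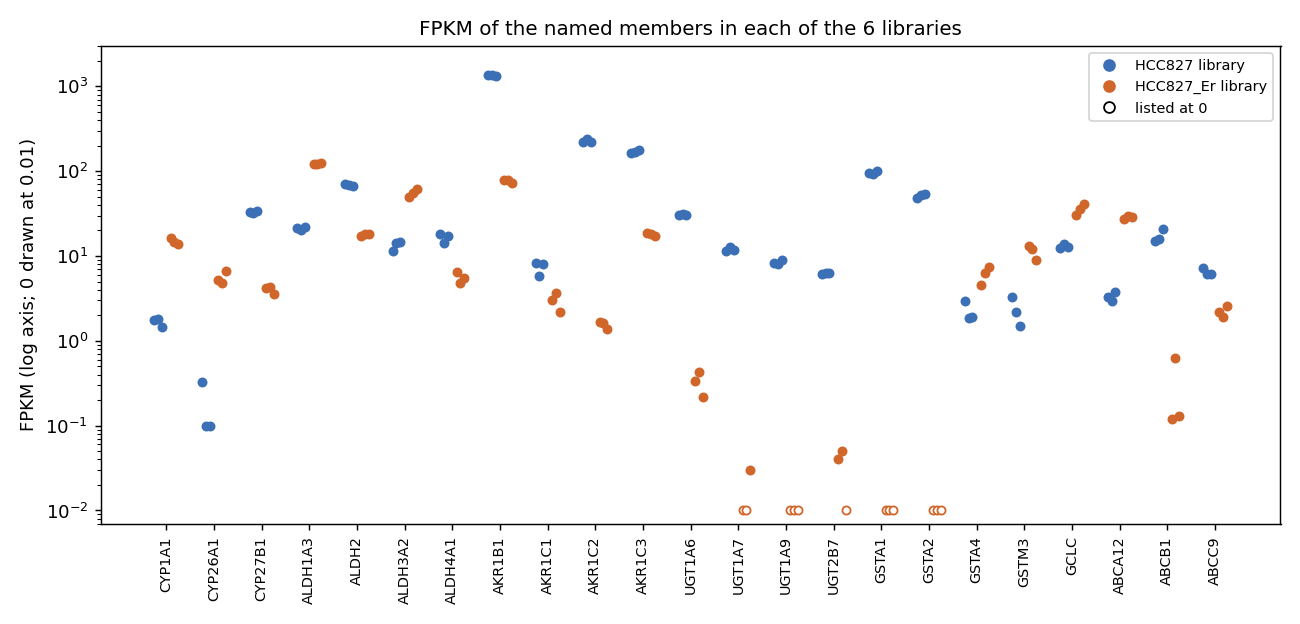
FPKM (log axis) of 23 members in each library, HCC827 in blue and HCC827_Er in orange; open circles at the bottom are values listed at 0. GSTA1, GSTA2 and UGT1A9 are at 0 in all 3 HCC827_Er libraries, AKR1B1 is the most abundant member in HCC827 at 1345 FPKM and ALDH1A3 in HCC827_Er at 123.6 FPKM.

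Aldo-keto reductases made up most of the members' transcripts in HCC827 and fell in HCC827_Er. Their levels summed to 1804 ± 28.4 FPKM in HCC827 (SD, n = 3) and to 134.9 ± 8.14 FPKM in HCC827_Er, which was 71.3% and 18.3% of the sum over all 70 members. Without the AKR genes the members summed to 725.3 ± 16.5 and 601.2 ± 15.1 FPKM as deposited, and this difference depended on the scaling. With equal sums all members came to 2321 and 802.3 and the AKR genes to 1655 and 147.1, which leaves the rest nearly equal. After median-ratio rescaling all members came to 2777 and 636.8 and the AKR genes to 1981 and 116.7, which leaves a wider gap. All 6 AKR genes were lower, and 4 of 6 were called lower and none higher (median-ratio 4 lower; equal sums 3 lower).

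AKR1B1 (ENSG00000085662, chr7:134442350-134459284, minus strand, GENCODE 29 on GRCh38) encodes aldose reductase, which reduces glucose to sorbitol and also acts on lipid aldehydes. It stood at 1375.54, 1347.54 and 1311.36 FPKM in HCC827 and at 79.85, 79.60 and 73.09 FPKM in HCC827_Er. The line means differed 17.3-fold, with a log2 difference of -4.10 (SE 0.051, limma adjusted p = 1.93e-10). Its neighbour AKR1B10, which reduces retinal and other aldehydes, stood at 21.67 ± 1.43 and 13.96 ± 1.25 FPKM and was not called.

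AKR1C1, AKR1C2 and AKR1C3 lie side by side at chr10:4963253-5107686 and encode hydroxysteroid dehydrogenases, which inactivate or activate steroid hormones; AKR1C3 also makes prostaglandin F. AKR1C2 stood at 221.54, 239.73 and 221.82 FPKM in HCC827 and at 1.68, 1.61 and 1.39 FPKM in HCC827_Er, a 146-fold difference of the means. AKR1C3 stood at 162.60, 166.87 and 178.62 FPKM and at 18.51, 18.31 and 17.25 FPKM, a 9.4-fold difference. AKR1C1 was low in both lines, at 8.22, 5.81 and 8.06 FPKM and at 3.01, 3.66 and 2.18 FPKM. None of the 3 genes overlapped between the lines, which was a condition for naming them with all values. AKR1C1 (log2 difference -1.09) was not called with equal sums (-0.89) or without HCC827_Er replicate 3 (-0.94). It also lost its call with a pseudocount of 5 (-0.64). AKR7A2, which reduces aflatoxin aldehyde and succinic semialdehyde, stood at 33.10 ± 1.37 and 20.87 ± 1.98 FPKM and was not called.

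AKR1C1 and AKR1C2 are shown because their levels in HCC827 lay far apart while the 250 bases before their start sites are nearly the same. The windows, from RefSeq on GRCh38.p14, are chr10:4963165-4963414 on the plus strand for AKR1C1 and chr10:5003858-5004107 on the minus strand for AKR1C2. They matched in 245 of 246 aligned positions, and capitals mark the mismatch.
AKR1C1: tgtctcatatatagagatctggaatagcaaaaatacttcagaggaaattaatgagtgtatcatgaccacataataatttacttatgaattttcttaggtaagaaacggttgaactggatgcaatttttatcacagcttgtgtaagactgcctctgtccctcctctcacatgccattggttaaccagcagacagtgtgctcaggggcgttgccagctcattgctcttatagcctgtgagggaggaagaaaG
AKR1C2: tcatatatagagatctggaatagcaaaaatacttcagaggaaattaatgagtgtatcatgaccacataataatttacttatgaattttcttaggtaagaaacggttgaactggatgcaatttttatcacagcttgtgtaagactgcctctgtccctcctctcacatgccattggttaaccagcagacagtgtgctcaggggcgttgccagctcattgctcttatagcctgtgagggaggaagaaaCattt
The transcripts are alike as well. Of all stretches of 75 bases in the GENCODE 29 transcripts of AKR1C2, 29.1% also occur in transcripts of AKR1C1, and 21.7% of those of AKR1C1 occur in AKR1C2. For AKR1C3 only 2.87% occur in any other gene. How the authors' counting divided reads between AKR1C1 and AKR1C2 is therefore uncertain, and the split between them is given as deposited. The window of AKR1C3 matched that of AKR1C1 in 185 of 250 aligned positions.

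**Figure D2:**
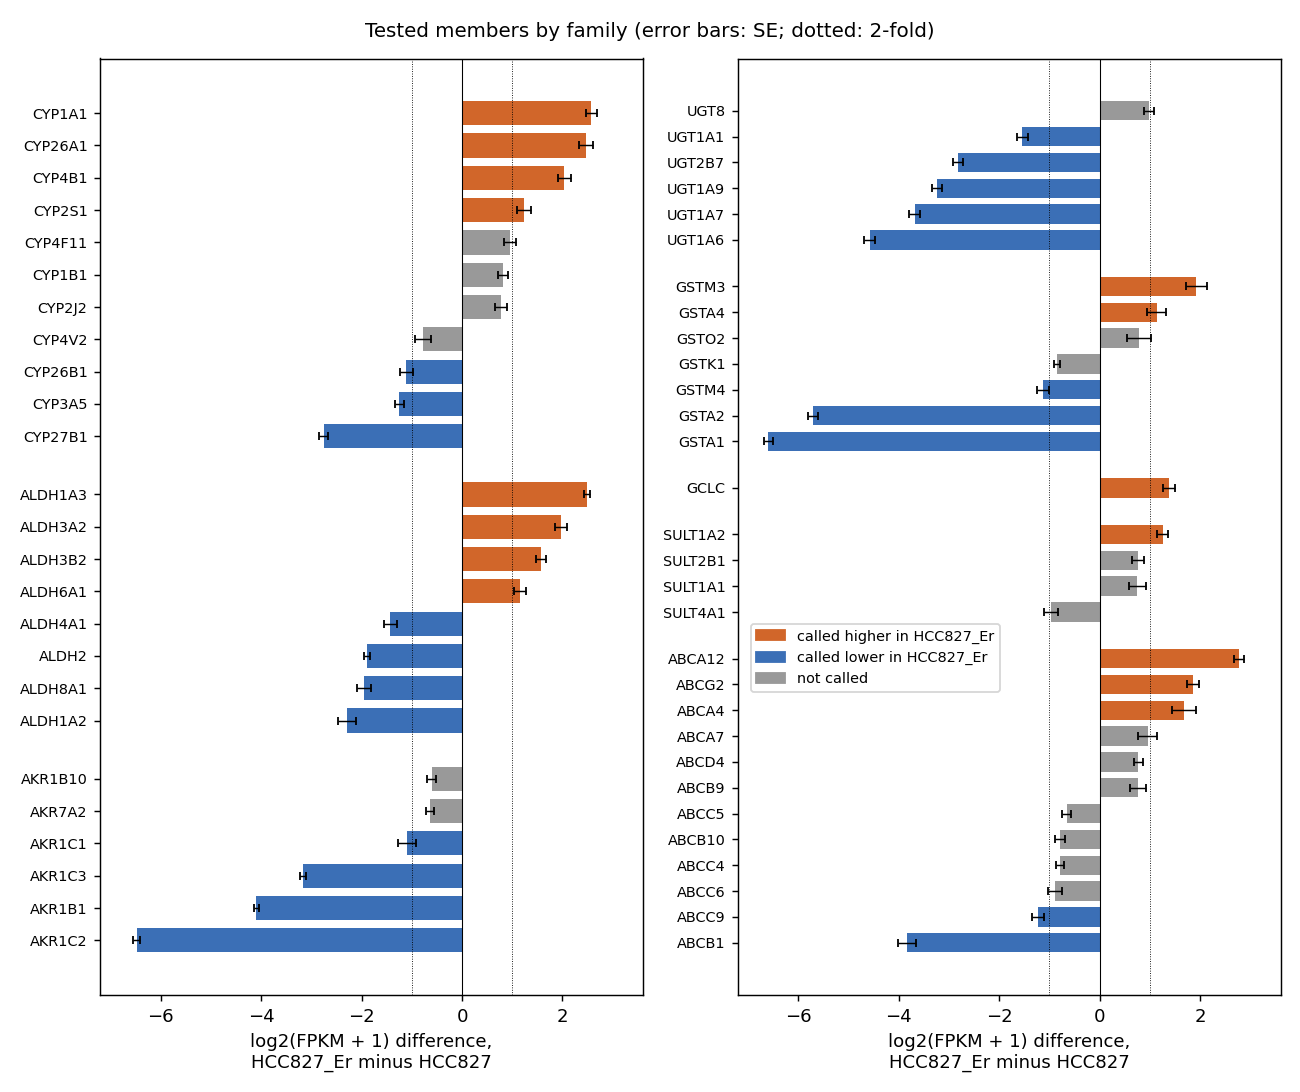
Difference in log2(FPKM + 1), HCC827_Er minus HCC827, for 55 of the 57 tested members, grouped by family and ordered within it. Bars are limma estimates, error bars their SE, and dotted lines mark a 2-fold change of FPKM + 1. No AKR gene is above 0, the CYP, ALDH and ABC genes lie on both sides, and the bars of genes at 0 in all libraries of a line (GSTA1, GSTA2, UGT1A9, CYP4B1) depend on the pseudocount of 1.

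Glucuronosyltransferases of the UGT1 and UGT2 families fell to near 0 in HCC827_Er. All 9 UGT genes summed to 66.73 ± 0.834 FPKM in HCC827 and 12.15 ± 0.905 FPKM in HCC827_Er, of which UGT8 alone held most in HCC827_Er. The 6 UGT1A genes occupy chr2:233617645-233773310, and each has a first exon and start site of its own joined to the same last exons. UGT1A1, UGT1A6, UGT1A7 and UGT1A9 were tested and all 4 were called lower, with every scaling.

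UGT1A6, which glucuronidates small phenols, stood at 30.47, 31.47 and 30.34 FPKM in HCC827 and at 0.34, 0.43 and 0.22 FPKM in HCC827_Er (log2 difference -4.58, SE 0.11, limma adjusted p = 2.88e-09). UGT1A7 stood at 11.38, 12.81 and 11.68 FPKM and was listed at 0, 0 and 0.03 FPKM. UGT1A9, an enzyme of propofol and many carboxylic acid drugs, stood at 8.35, 7.98 and 9.07 FPKM and was listed at 0 in all 3 HCC827_Er libraries. Every UGT1A gene was thus higher in each HCC827 library than in any HCC827_Er library. Such lack of overlap, in either direction, was found for 96.1% of all listed genes. UGT1A1, the bilirubin-conjugating enzyme, stood at 2.01 ± 0.256 FPKM in HCC827 and was above 0 in only 1 HCC827_Er library, at 0.11 FPKM. UGT1A8 and UGT1A4 were below the filter, with 1.01 and 0.363 FPKM in HCC827. Because of the common exons, between 38.0% (UGT1A7) and 69.0% (UGT1A4) of the 75-base stretches of these 6 genes occur in another gene, so the levels of single UGT1A genes are uncertain.

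Further members of the class lie at chr4:68928463-69112987. UGT2B7, which glucuronidates morphine and steroids, stood at 6.18, 6.34 and 6.27 FPKM in HCC827 and at 0.04, 0.05 and 0 FPKM in HCC827_Er (log2 difference -2.82, limma adjusted p = 2.39e-08). Its neighbour UGT2A3 was below the filter, at 0.450 FPKM in HCC827 and listed at 0 in HCC827_Er. UGT8, which builds galactosylceramide and does not act on drugs, stood apart from these at 5.453 ± 0.127 and 11.72 ± 1.03 FPKM. Its difference of 0.98 lay just under the threshold, and it was called higher with equal sums, with a pseudocount of 0.1 and without HCC827_Er replicate 1.

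The windows before the start sites of UGT1A6 (the first of its starts in the RefSeq table), UGT1A7 and UGT1A9 are shown because these were the most abundant UGT1A genes in HCC827 and went down together. They lie on the plus strand of GRCh38.p14 at chr2:233691452-233691701, chr2:233681651-233681900 and chr2:233671648-233671897. CYP1A1, which rose, is shown beside them, at chr15:74725529-74725778 on the minus strand. Capitals mark GCGTG on either strand (CACGC when read on the other), the core of the xenobiotic response element at which AHR binds.
UGT1A6: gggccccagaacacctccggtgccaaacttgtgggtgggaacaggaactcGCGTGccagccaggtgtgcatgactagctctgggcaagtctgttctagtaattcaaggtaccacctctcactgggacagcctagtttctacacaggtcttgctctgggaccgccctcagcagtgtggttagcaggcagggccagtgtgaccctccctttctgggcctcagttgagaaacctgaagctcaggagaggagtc
UGT1A7: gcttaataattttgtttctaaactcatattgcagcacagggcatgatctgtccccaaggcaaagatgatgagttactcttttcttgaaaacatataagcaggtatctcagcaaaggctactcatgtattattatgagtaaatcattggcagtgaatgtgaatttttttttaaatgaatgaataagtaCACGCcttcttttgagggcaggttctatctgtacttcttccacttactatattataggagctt
UGT1A9: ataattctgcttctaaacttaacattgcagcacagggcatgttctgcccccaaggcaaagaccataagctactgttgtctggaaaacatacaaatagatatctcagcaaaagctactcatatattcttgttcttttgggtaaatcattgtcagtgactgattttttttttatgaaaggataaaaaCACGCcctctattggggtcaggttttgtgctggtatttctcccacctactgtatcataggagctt
CYP1A1: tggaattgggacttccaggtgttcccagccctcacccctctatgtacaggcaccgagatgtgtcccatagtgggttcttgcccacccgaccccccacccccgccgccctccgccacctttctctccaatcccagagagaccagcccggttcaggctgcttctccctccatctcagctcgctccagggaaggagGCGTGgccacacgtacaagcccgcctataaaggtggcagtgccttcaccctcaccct
The match lay 63 bases before the start in UGT1A7, 65 in UGT1A9, 200 in UGT1A6 and 57 in CYP1A1, so genes that rose and genes that fell both held it. The windows of UGT1A7 and UGT1A9 matched in 201 of 254 aligned positions, gaps counted. Windows were found for 56 of the 70 members, 79 in all because some genes have several starts. GCGTG occurred in 31 of the 79 (39.2%), beside 32.2% of all 35116 windows of the table. The core of the antioxidant response element bound by NRF2, TGACNNNGC on either strand, occurred in 10 of the 79 (12.7%), beside 10.9% of all windows. It was found for UGT1A6, in the window of its other start, and for GSTA4, AKR7A2, CYP4V2, CYP4F11, CYP2B6, ABCB9, ABCC4 and ABCD4.

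Neighbouring glutathione S-transferase genes of the alpha class were called in opposite directions. GSTA1 and GSTA2, the detoxifying transferases typical of hepatocytes, lie with GSTA4 at chr6:52750089-52995378. GSTA1 stood at 96.36, 92.00 and 99.38 FPKM in HCC827, and GSTA2 at 48.13, 51.78 and 54.16 FPKM. In HCC827_Er each of the 3 libraries listed both genes at 0, and a fold is not given. GSTA4, which acts on the lipid peroxidation product hydroxynonenal, went the other way, at 2.95, 1.85 and 1.91 FPKM in HCC827 and 4.59, 6.38 and 7.49 FPKM in HCC827_Er. Its difference of 1.14 was not called with median-ratio rescaling (0.87).

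The windows before GSTA1 (chr6:52803817-52804066) and GSTA2 (chr6:52763476-52763725), both on the minus strand of GRCh38.p14, are shown because both genes were at 0 in the same libraries. They matched in 243 of 250 positions, and capitals mark the 7 that differ.
GSTA1: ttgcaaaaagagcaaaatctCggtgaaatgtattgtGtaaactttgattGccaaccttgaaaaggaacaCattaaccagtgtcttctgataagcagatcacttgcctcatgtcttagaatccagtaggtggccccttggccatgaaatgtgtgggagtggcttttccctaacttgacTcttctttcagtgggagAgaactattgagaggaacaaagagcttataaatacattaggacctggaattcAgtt
GSTA2: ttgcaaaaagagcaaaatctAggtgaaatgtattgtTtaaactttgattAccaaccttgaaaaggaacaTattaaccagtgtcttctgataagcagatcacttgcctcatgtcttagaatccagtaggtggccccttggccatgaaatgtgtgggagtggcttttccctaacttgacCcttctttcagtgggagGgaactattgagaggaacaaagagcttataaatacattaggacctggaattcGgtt
Neither window held GCGTG or TGACNNNGC. Of the 75-base stretches of GSTA1 transcripts 13.7% occur in GSTA2, and of those of GSTA2 12.1% occur in GSTA1, so the split of reads between the 2 genes is uncertain.

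The other GST genes differed less. GSTM3, a mu-class enzyme, stood at 3.32, 2.16 and 1.51 FPKM in HCC827 and at 13.19, 12.04 and 9.06 FPKM in HCC827_Er (log2 difference 1.92, SE 0.21, limma adjusted p = 2.61e-05). Its neighbour GSTM4 fell from 6.03 ± 0.289 to 2.21 ± 0.372 FPKM, which was not called with equal sums (-0.94). GSTK1, the mitochondrial and peroxisomal kappa-class enzyme, was the most abundant GST in HCC827_Er at 70.19 ± 5.25 FPKM, against 127.4 ± 4.33 FPKM in HCC827, and passed the threshold, as lower, only after median-ratio rescaling. GSTO2, a dehydroascorbate reductase, stood at 0.76 ± 0.665 and 1.89 ± 0.209 FPKM, and was called higher only with a pseudocount of 0.1 or without HCC827 replicate 3. In all, 2 of 7 GST genes were called higher and 3 lower (median-ratio 1 and 4; equal sums 2 and 2).

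GCLC, the catalytic subunit of the enzyme that limits glutathione synthesis, rose. It stood at 12.60, 14.02 and 12.73 FPKM in HCC827 and at 30.73, 35.65 and 41.29 FPKM in HCC827_Er, a 2.74-fold difference of the means (log2 difference 1.38, SE 0.11, limma adjusted p = 3.48e-06, called with every scaling). The window before its start (chr6:53545102-53545351, minus strand, GRCh38.p14) is shown for comparison with those above, with GCGTG matches in capitals.
GCLC: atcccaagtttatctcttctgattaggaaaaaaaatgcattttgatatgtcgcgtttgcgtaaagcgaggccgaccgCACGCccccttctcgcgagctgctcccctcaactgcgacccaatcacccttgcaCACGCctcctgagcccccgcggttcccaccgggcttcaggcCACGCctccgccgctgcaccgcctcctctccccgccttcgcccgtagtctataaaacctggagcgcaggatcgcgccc
The matches, all on the strand opposite to the gene, began 173, 119 and 78 bases before the start. TGACNNNGC did not occur in the window, and sequence outside it was not searched. GCLC was thus higher in every HCC827_Er library, and 96.1% of all listed genes likewise did not overlap between the lines. The summed GST level was 286.1 ± 8.92 FPKM in HCC827 and 91.87 ± 5.74 FPKM in HCC827_Er. That sum hides both directions, since by line means 3 of the 7 GST genes were higher in HCC827_Er and 4 lower. A link between GCLC and the GST genes was not tested.

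**Figure D3:**
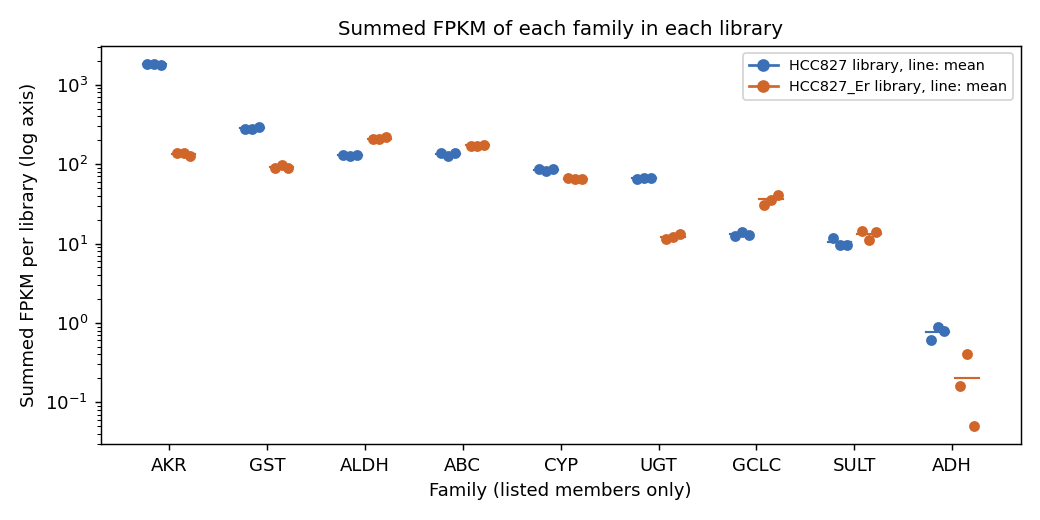
Summed FPKM of the listed members of each family (log axis) in each library, HCC827 in blue and HCC827_Er in orange, with lines at the means. The AKR, GST and UGT sums are lower in all 3 HCC827_Er libraries, and the ALDH sums and GCLC are higher, with every scaling; the ABC sums are higher as deposited but overlap after median-ratio rescaling, and the SULT sums overlap as deposited.

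Among cytochromes P450, 4 of 12 tested genes were called higher and 4 lower (median-ratio 3 and 5, equal sums 6 and 3). Over all tested genes 24.7% were called higher and 19.7% lower. Of the 18 P450 genes 6 were below the filter. CYP1A1, the aryl hydrocarbon hydroxylase that AHR induces, rose. It stood at 1.78, 1.82 and 1.45 FPKM in HCC827 and at 16.21, 14.53 and 13.92 FPKM in HCC827_Er, 8.84-fold apart (log2 difference 2.57, SE 0.11, limma adjusted p = 9.31e-08). CYP1B1, another AHR target, stood at 4.58 ± 0.335 and 8.86 ± 0.551 FPKM and was called higher with equal sums alone. CYP1B1-AS1, a noncoding gene that overlaps it on the opposite strand, is also in the table, and 7.4% of the 75-base stretches of CYP1B1 transcripts occur in it. Whether the counting used strand is not given in the sources used here, so reads from the part that this pair shares cannot be told apart.

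Of the P450 genes for retinoic acid removal CYP26A1 rose and CYP26B1 fell, and the vitamin D gene CYP27B1 fell. CYP26A1, which hydroxylates retinoic acid for removal, stood at 0.33, 0.10 and 0.10 FPKM in HCC827 and at 5.25, 4.75 and 6.63 FPKM in HCC827_Er (log2 difference 2.47, limma adjusted p = 4.85e-07). The means were 31.4-fold apart, and 55.4-fold without HCC827 replicate 1. Of the 75-base stretches of CYP26A1, 22.3% occur in another gene, so its level is uncertain. CYP26B1, which has the same activity, fell from 1.95 ± 0.436 to 0.367 ± 0.121 FPKM. It was not called with equal sums or without HCC827 replicate 2 (-0.99 in each), or with a pseudocount of 5 (-0.37). CYP27B1, the enzyme that produces active vitamin D, stood at 33.08, 31.82 and 33.60 FPKM in HCC827 and at 4.20, 4.33 and 3.61 FPKM in HCC827_Er (log2 difference -2.75, limma adjusted p = 1.70e-08). It was the most abundant CYP member in HCC827.

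Of the CYP3A genes, which oxidise many drugs, CYP3A5 was called lower. CYP3A5 fell from 16.78 ± 0.492 to 6.49 ± 0.474 FPKM, and was not called with a pseudocount of 5 (-0.92). CYP3A4, the main drug oxidase of liver, was below the filter, at 0.290 ± 0.0529 FPKM in HCC827 and listed at 0 in HCC827_Er, so among the CYP3A genes here CYP3A5 carried nearly all of the signal in both lines. CYP2C18 was also below the filter, at 0.417 and 0.110 FPKM, and 35.5% of its 75-base stretches occur in another gene.

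CYP4B1, a P450 known from lung, was listed at 0 in all 3 HCC827 libraries and reached 2.59, 3.10 and 3.74 FPKM in HCC827_Er. CYP2S1, a P450 of epithelia, rose from 2.63 ± 0.495 to 7.50 ± 0.994 FPKM and was not called with median-ratio rescaling (0.95). CYP2J2, an arachidonic acid epoxygenase, stood at 4.09 ± 0.466 and 7.69 ± 0.665 FPKM and was not called. CYP4F11, CYP4F3 and CYP4F12, which hydroxylate fatty acids and leukotrienes, lie together on chromosome 19 and were low: 0.560, 0.127 and 0.020 FPKM in HCC827 and 2.05, 0.923 and 0.310 FPKM in HCC827_Er. Of these only CYP4F11 was tested, and it was not called as deposited (0.96), but was called higher with equal sums, with a pseudocount of 0.1 and without HCC827_Er replicate 1. CYP4V2, a fatty acid hydroxylase, stood at 5.10 ± 0.821 and 2.58 ± 0.603 FPKM and passed the threshold, as lower, only after median-ratio rescaling. CYP2B6 and CYP7B1 were below the filter, with no library above 0.63 FPKM.

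Aldehyde dehydrogenases were split, with 4 of 8 called higher and 4 lower (median-ratio 3 and 4; equal sums 4 and 4), and all 8 passed the filter. ALDH1A3, which makes retinoic acid from retinal, was the most abundant member of all families in HCC827_Er. It stood at 21.14, 20.47 and 21.74 FPKM in HCC827 and at 123.20, 121.91 and 125.72 FPKM in HCC827_Er, 5.85-fold apart (log2 difference 2.49, SE 0.055, limma adjusted p = 2.38e-09). Of its 75-base stretches, 22.4% occur in a gene annotated on the opposite strand. ALDH1A2, which has the same activity, went the other way, from 4.51 ± 0.904 FPKM to 0.40 FPKM in HCC827_Er replicate 1 and 0 in the other libraries.

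ALDH2, the mitochondrial enzyme that clears acetaldehyde, stood at 70.98, 68.11 and 66.27 FPKM in HCC827 and at 17.03, 18.13 and 18.18 FPKM in HCC827_Er (log2 difference -1.89, SE 0.063, limma adjusted p = 1.92e-08). ALDH3A2, the fatty aldehyde dehydrogenase, stood at 11.56, 14.20 and 14.44 FPKM and at 49.65, 55.51 and 61.57 FPKM. ALDH4A1, an enzyme of proline breakdown, stood at 18.37, 14.27 and 17.35 FPKM and at 6.42, 4.78 and 5.47 FPKM. Of its 75-base stretches, 35.8% occur in another gene, so its level is uncertain. Lack of overlap between the lines was a condition for naming ALDH2, ALDH3A2 and ALDH4A1 with all values. It was met by 96.1% of all listed genes. ALDH6A1, of valine breakdown, rose from 1.78 ± 0.275 to 5.21 ± 0.217 FPKM and was not called with median-ratio rescaling (0.90). ALDH3B2 rose from 0.0133 ± 0.0231 to 2.02 ± 0.215 FPKM, and ALDH8A1 fell from 3.38 ± 0.725 to 0.123 ± 0.0603 FPKM. ADH6, the only alcohol dehydrogenase listed, was below the filter at 0.763 and 0.203 FPKM.

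Sulfotransferases were low throughout, with family sums of 10.32 ± 1.21 and 13.22 ± 1.99 FPKM, which did not overlap when scaled to equal sums. SULT1A2, a phenol sulfotransferase, rose from 0.413 ± 0.116 to 2.37 ± 0.155 FPKM and was the only one of the 4 tested genes called as deposited. Its neighbour SULT1A1 stood at 3.61 ± 0.400 and 6.87 ± 1.67 FPKM, and 10.2% of the 75-base stretches of SULT1A2 occur in it. SULT2B1, which sulfates cholesterol, stood at 0.607 and 1.73 FPKM and was called higher with a pseudocount of 0.1. SULT4A1, known from brain, stood at 5.36 ± 1.09 and 2.23 ± 0.231 FPKM, and it passed the threshold, as lower, after median-ratio rescaling, with a pseudocount of 0.1 and without HCC827 replicate 3 or HCC827_Er replicate 3. SULT1C4 was below the filter, at 0.330 and 0.0233 FPKM.

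The multidrug pumps changed in opposite directions. ABCB1, which encodes P-glycoprotein, stood at 14.86, 15.97 and 20.75 FPKM in HCC827 and at 0.12, 0.62 and 0.13 FPKM in HCC827_Er (log2 difference -3.83, SE 0.18, limma adjusted p = 1.57e-07). The means were 59.3-fold apart, and 138-fold without HCC827_Er replicate 2. ABCG2, which encodes the breast cancer resistance protein, stood at 0.16, 0.11 and 0.18 FPKM in HCC827 and at 3.29, 2.64 and 3.69 FPKM in HCC827_Er, 21.4-fold apart (log2 difference 1.86, SE 0.12, limma adjusted p = 1.02e-06). In HCC827_Er the level of ABCG2 remained below that of ABCB1 in HCC827, and ABCG2 was not called with a pseudocount of 5 (0.67). The organic anion and nucleotide pumps ABCC4 and ABCC5 stood at 22.91 ± 0.598 and 12.89 ± 1.11 FPKM, and at 15.33 ± 0.983 and 9.32 ± 0.841 FPKM. Neither was called as deposited, and median-ratio rescaling took ABCC4 past the threshold, as lower.

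Lipid and organelle transporters made up most of the other ABC members. ABCA12, a lipid transporter of keratinocytes, had the largest rise of any member on the log2(FPKM + 1) scale. It stood at 3.33, 2.96 and 3.76 FPKM in HCC827 and at 27.18, 29.69 and 28.92 FPKM in HCC827_Er, 8.54-fold apart (log2 difference 2.77, SE 0.099, limma adjusted p = 2.68e-08). Its libraries did not overlap between the lines, which was a condition for naming it with all values. ABCC9, a regulatory subunit of ATP-sensitive potassium channels, stood at 7.20, 6.16 and 6.22 FPKM and at 2.19, 1.89 and 2.58 FPKM. ABCA4, a retinoid transporter of the retina, rose from 0.690 ± 0.548 to 4.19 ± 0.688 FPKM.

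The ABC members summed to 134.1 ± 6.57 FPKM in HCC827 and 172.3 ± 2.86 FPKM in HCC827_Er, but to 147.2 ± 5.2 and 149.0 ± 0.901 after median-ratio rescaling, chosen as a check of the sums after seeing the data. Over all tested genes 24.7% were called higher and 19.7% lower. Of the 13 tested ABC genes 4 were called higher and 2 lower (median-ratio 4 and 5, equal sums 6 and 2). The uncalled ones were the lipid transporter ABCA7 (8.91 and 18.33 FPKM), the cobalamin transporter ABCD4 (18.58 and 32.26), the lysosomal peptide transporter ABCB9 (4.42 and 8.25), the mitochondrial ABCB10 (11.54 and 6.22) and ABCC6 (10.52 and 5.25), beside ABCC4 and ABCC5. ABCA7 lay just under the threshold at 0.96, and was called higher with equal sums, with a pseudocount of 0.1, and without HCC827 replicate 1 or HCC827_Er replicate 2. ABCD4 was called higher with equal sums, ABCB10 lower after median-ratio rescaling, and ABCC6 lower after median-ratio rescaling and with a pseudocount of 0.1. Of the 75-base stretches of ABCC6, 12.3% occur in its pseudogene ABCC6P1, and of those of ABCB9 22.3% occur in other genes. ABCA13 and ABCC11 were below the filter, with no library above 0.54 FPKM.

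**Figure D4:**
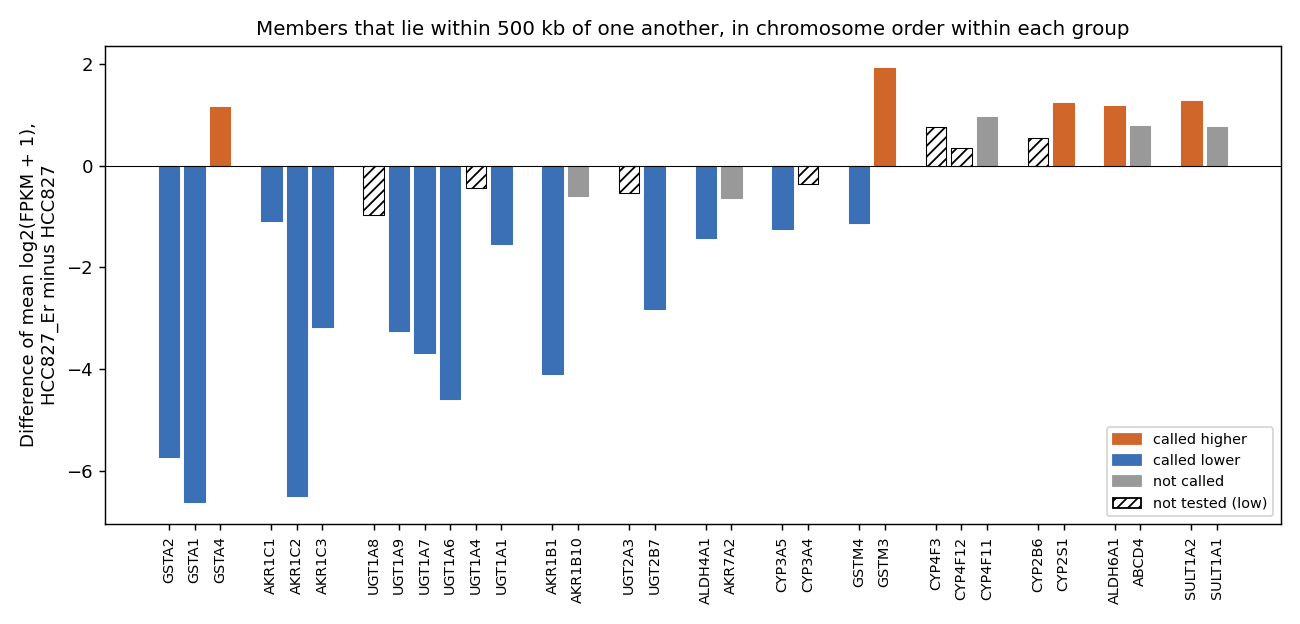
Difference of mean log2(FPKM + 1), HCC827_Er minus HCC827, for 31 members that lie within 500 kb of another member, in chromosome order within each of 12 groups; hatched bars were below the filter. In 10 groups all members are on the same side of 0, and in the GSTA and GSTM groups they are on both.

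Position gave a further view of the families. When members less than 500 kb apart were grouped, 33 members fell into 13 groups of 2 to 6. In 11 groups every member had the same sign of difference by its line means: 7 groups were lower in HCC827_Er (among them UGT1A, AKR1C, AKR1B, CYP3A, UGT2, and ALDH4A1 with AKR7A2) and 4 were higher (CYP4F, SULT1A, CYP2B6 with CYP2S1, and ALDH6A1 with ABCD4). The GSTA and GSTM groups held both signs. Most groups were pairs, the signs include members below the filter, and no gene of the CYP4F group was called. How often neighbouring genes share a sign over the whole table was not computed, so no pattern by position is claimed. Genes of a group can share reads or exons, as in UGT1A and AKR1C, so they are not independent of each other. Of 70 members, 13 had at least 20% of their 75-base stretches in another gene, and how this bears on their values was not tested.

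Of 126 other names of the pathway (regulators, NRF2 targets, further phase I and II enzymes, uptake transporters and metallothioneins), 58 were in the table and 53 were tested. Of these 12 were called higher and 20 lower (median-ratio 7 and 26, equal sums 17 and 14). That is 22.6% and 37.7%, beside 24.7% and 19.7% of all tested genes. Their median difference was -0.70. Among 15 regulators 1 was called higher and 7 lower (median-ratio 1 and 10; equal sums 2 and 5). NR1H4, the bile acid receptor, fell from 42.78 ± 3.08 to 0.0933 ± 0.0902 FPKM. FOXA1, a pioneer factor of endoderm, rose from 6.32 ± 0.651 to 25.03 ± 1.33 FPKM. PPARG fell from 37.29 ± 4.42 to 11.54 ± 0.490 FPKM and HNF4G from 43.71 ± 3.73 to 17.59 ± 1.62 FPKM. AHR, named after its values were seen, stood at 25.04 ± 1.66 and 50.19 ± 6.15 FPKM (0.97). It passed the threshold, as higher, with equal sums, without HCC827 replicate 1 and without HCC827_Er replicate 1. Its repressor AHRR, named likewise, fell from 4.63 ± 0.131 to 1.37 ± 0.338 FPKM.

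Of 25 names of NRF2 targets and redox genes 9 were listed, and NQO1, GCLM and TXNRD1 were not among them. Of these 9, 2 were called higher and 3 lower (median-ratio 1 and 4, equal sums 2 and 2). Over all tested genes 24.7% were called higher and 19.7% lower. Whether the class moved with GCLC was not tested. GPX2, a glutathione peroxidase of epithelia, rose from 3.19 ± 0.573 to 29.19 ± 2.83 FPKM. HMOX1, which degrades heme, fell from 35.23 ± 0.916 to 11.41 ± 1.02 FPKM, and the ferritin light chain FTL from 1568 ± 36.6 to 610.0 ± 18.6 FPKM. OSGIN1 fell from 23.11 ± 1.64 to 9.37 ± 1.02 FPKM and was not called with equal sums.

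Of the further phase I enzymes 5 of 14 were called higher and 3 lower (median-ratio 4 and 3, equal sums 8 and 2). Over all tested genes the shares were 24.7% and 19.7%. XDH, xanthine dehydrogenase, rose from 0.200 ± 0.156 to 8.26 ± 0.146 FPKM, CDA, which deaminates cytidine drugs, from 5.54 ± 0.879 to 34.28 ± 1.04 FPKM, and FMO5 from 0.300 ± 0.0608 to 5.06 ± 0.599 FPKM. CES1, the hepatic carboxylesterase, was listed at 0 in HCC827 and stood at 3.71 ± 0.352 FPKM in HCC827_Er, while MAOB fell from 3.82 ± 0.854 to 0.117 ± 0.0473 FPKM. Of the further phase II enzymes 3 of 10 were called higher and 5 lower (median-ratio 0 and 7; equal sums 3 and 4). NNMT, which methylates nicotinamide, fell from 822.9 ± 109 to 52.56 ± 8.85 FPKM, and GGT1, which cleaves extracellular glutathione, from 187.6 ± 5.56 to 33.61 ± 3.06 FPKM. PAPSS2, which makes the sulfate donor, fell from 77.78 ± 1.33 to 23.31 ± 1.01 FPKM, and the membrane transferase MGST3 from 169.9 ± 6.39 to 58.98 ± 5.92 FPKM. HNMT, histamine methyltransferase, rose from 23.57 ± 2.25 to 58.97 ± 9.60 FPKM and was not called with median-ratio rescaling. Of the uptake transporters the prostaglandin carrier SLCO2A1 rose from 3.98 ± 0.250 to 20.92 ± 1.59 FPKM. The organic anion carrier SLCO1B3 fell from 22.87 ± 1.30 to 7.47 ± 1.01 FPKM, and SLCO4C1 from 1.49 ± 0.138 to 0.243 ± 0.123 FPKM, the latter not called with equal sums.

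The labelled cell type was checked with marker lists, since liver and gut cells carry many of the same enzymes. Of 10 markers of lung adenocarcinoma epithelium 7 were listed, and 6 of these were called higher with every scaling. EPCAM rose from 30.15 to 296.7 FPKM, NAPSA from 28.0 to 257.4, CDH1 from 60.7 to 161.4, KRT19 from 387.2 to 1084, NKX2-1 from 5.93 to 65.71 and SFTPB from 0.213 to 39.56. KRT8 stood at 1744 and 1025 FPKM and was called lower only after median-ratio rescaling. It made up most of the list's sum in HCC827, which was 2197.4 to 2291.17 FPKM there and 2869.72 to 2967.48 FPKM in HCC827_Er. Of 7 hepatocyte markers 3 were listed. FGB, the fibrinogen beta chain, fell from 1044 to 135.4 FPKM and AFP from 5.03 to 0.0433 FPKM, while SERPINA1 rose from 70.02 to 160.6 FPKM, which was not called after median-ratio rescaling. FGB and AFP thus fell together with GSTA1, GSTA2 and the UGT1A genes, and SERPINA1 and GSTA4 did not. The part of these markers in those results was not tested. Of 6 leukocyte markers 4 were listed and all 4 were called higher, with sums of 1.81 to 2.47 FPKM in HCC827 and 16.9 to 22.69 FPKM in HCC827_Er. Of 6 enterocyte markers 2 were listed, with sums of 0.18 to 0.42 FPKM in HCC827 and 3.07 to 5.43 FPKM in HCC827_Er, and VIL1 was called higher. Of 6 fibroblast markers 3 were listed, with sums of 2.46 to 3.35 FPKM and 9.33 to 11.52 FPKM. COL1A1 rose from 0.75 to 10.09 FPKM, LUM stood at 1.81 and 0.530 FPKM, and COL3A1 was at 0.283 FPKM in HCC827 and listed at 0 in HCC827_Er. Of 5 endothelial markers 2 were listed, with sums of 8.48 to 9.57 FPKM and 6.83 to 7.78 FPKM. EGFL7 stood at 9.07 and 6.61 FPKM, and CDH5 was listed at 0 in HCC827 and at 0.610 FPKM in HCC827_Er. In bulk RNA fewer cells that express a gene and less RNA per cell cannot be told apart.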

How the data were processed

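Per the labels' protocols, TruSeq libraries were made from total RNA of 3 HCC827 and 3 HCC827_Er samples. The file deposited by the authors holds FPKM by Ensembl gene for the 6 libraries, with 2 decimals and no counts, so depth and counting error are unknown. Per the submitters' processing notes, fastp, HISAT2 and StringTie were used and GRCh38.p14 and hg19 are named. Tool versions, the use of each build, annotation, strandedness and how the listed genes were selected were not given in the sources used here. Because FPKM is relative to all mapped fragments, a few abundant transcripts can shift every other gene.

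Samples were grouped by title. Symbols were matched by identifier for 6636 of 6641 genes, and gene types and positions came from GENCODE 29 (6353 genes). Values entered the fit as log2(FPKM + 1), as deposited, a scale on which changes of low genes come out smaller. Genes at 1 FPKM or more in 3 or more libraries (5276) were fitted with limma 3.58.1 in R 4.3.3 (mean-variance trend, cell line as the only term), with Benjamini-Hochberg adjustment over them. An exact test of 3 against 3 cannot go below 0.1, so none was run. SDs are over 3 libraries. The steps were tested on simulated data. The alternatives were other pseudocounts, filters and scalings, no trend, a replicate block and each library left out.

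The members and lists were chosen with earlier results of these data known. Named were, per family, the 4 called members of at least 5 FPKM in the higher line with the largest differences and no overlap, members at 0 in 1 line and at least 5 in the other, and GCLC, with all 6 values. Values of all libraries are also given for ABCG2 and CYP4B1, chosen after they were seen. Per pathway class up to 5 called genes were named. Some genes that these rules name are counted but not reported here. Promoter windows are RefSeq's (GRCh38.p14), cut to the 250 bases before the start. Sequence outside them was not searched, so a motif not found in a window may lie elsewhere. The naming rule lists windows of AKR1C, GSTA and GCLC, the reasons given for showing them were written with the values known, and those of UGT1A6, UGT1A7, UGT1A9 and CYP1A1 were chosen after the values were seen. Transcript overlap was counted over 75-base stretches of GENCODE 29 transcripts, on either strand.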

Additional observations from a re-analysis of the deposited data

How the results depend on the processing

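Leaving out any 1 library gave between 16 and 18 members called higher and between 21 and 23 lower, and between 11 and 14 pathway genes higher and between 18 and 21 lower. The replicate block left the counts at 16 and 22 members and 12 and 20 pathway genes. Same-numbered libraries deviated together with r of 0.106, -0.0219 and 0.0489 over genes, so the numbers were not taken to pair the samples. With a pseudocount of 5, 8 members were called higher and 14 lower, and 7 pathway genes higher and 12 lower. With a mean of at least 5 FPKM, under which fewer genes are tested, 8 members were called higher and 14 lower, and 7 pathway genes higher. With median-ratio rescaling 7 pathway genes were called higher. Of the 38 called members 22 kept their call in every one of 14 alternatives that tested them, and 10 lost it with the pseudocount of 5 alone. These were ABCA4, ABCC9, ABCG2, ALDH1A2, ALDH3B2, ALDH8A1, CYP3A5, CYP4B1, SULT1A2 and UGT1A1. AKR1C1, ALDH6A1, CYP26B1, CYP2S1, GSTA4 and GSTM4 lost it with the pseudocount of 5 and in another alternative as well. No member or pathway gene that was recomputed changed sign in any alternative. Genes listed at 0 and near 0 have no depth behind them in the table, so a low level cannot be told from a failed estimate.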
